A study of Arabidopsis thaliana with 36 samples.

Results

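Pseudouridine (Ψ) in the ribosomal and transfer RNAs of the reproductive organs of Arabidopsis thaliana, flower and silique, was compared with that of the leaves, cauline leaf and rosetta leaf (spelled as in the labels). All 4 tissues came from Col-0 plants grown on in soil. Rosetta leaf was taken at a fixed plant age, and cauline leaf, flower and silique were taken after flowering. No mutant or treated plants enter the comparison. Total RNA of each tissue was covered by 2 bisulfite-treated and 2 untreated input libraries, so 16 of the 36 libraries of the series lie behind it. A site entered where it had a Ψ fraction in all 4 tissues, which held for 533 of the 535 listed sites, 186 of 186 in rRNA and 347 of 349 in tRNA. A site was called separated where both values of one side lay above both of the other. The gap of a separated site is the lowest value of the higher side minus the highest of the lower side.

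Ψ is uridine turned around on its sugar, made after transcription, and it stabilises RNA structure through an extra hydrogen bond donor. In nuclear rRNA most Ψ is placed by H/ACA small nucleolar RNAs, each of which pairs with the bases around a target uridine. In tRNA and in organelle rRNA single enzymes recognise their own sites. In yeast, Pus4 makes Ψ at tRNA position 55, Pus7 at position 13, Pus3 at positions 38 and 39 and Pus1 at positions 27, 28, 34 and 36. In bisulfite-induced deletion sequencing (BID-seq) bisulfite adds to Ψ, and reverse transcriptase then skips the base. The Ψ fraction is the share of RNA molecules that carry Ψ at a site, from 0 to 1. The authors pooled both replicates of a tissue into 1 value, so no replicate error and no read depth stands behind a fraction. The differences between flower and silique and between the leaves are the spread to set beside each comparison. No p-value is given, since 2 tissues against 2 cannot go below a two-sided exact permutation p of 0.333. A value of 0 can be a failed estimate and is described as listed at 0. A tissue is a mixture of cell types, and a change of Ψ within cells and a change in the mixture cannot be told apart. The tables hold no mRNA, so the tissue labels were not checked against marker genes.

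The rRNA sites with the widest gaps among those that passed the authors' filter in both tissues of the higher side are shown first. Sequences are DNA letters of the RefSeq TAIR10.1 assembly, 5′ to 3′, with the listed site as the capital T in its neighbourhood. Nu-18S:74 and Nu-18S:723 lie in runs of 2 T, and Nu-18S:669 and Pt-16S:1089 in runs of 3. A deletion cannot be placed within such a run, so the U that carries Ψ may be another of the run. The first 5 lines are bases of the 18S gene AT2G01010 on the plus strand of chromosome 2. They lie at chr2:3769-3789, chr2:4418-4438, chr2:5062-5082, chr2:4364-4384 and chr2:3953-3973. The next pair lies in the 25S rRNA, at chr2:7942-7962 and chr2:7688-7708. The last pair lies in the chloroplast 4.5S and 16S rRNAs, at bases 107616 to 107636 and 102090 to 102110 of the chloroplast genome.
Nu-18S:74: tatgaacgaaTtcagactgtg
Nu-18S:723: ctggtcttaaTtggccgggtc
Nu-18S:1367: cgtggaggcaTcccttcacgg
Nu-18S:669: ggtccgccttTggtgtgcatt
Nu-18S:258: tgattcatgaTaactcgacgg
Nu-25S:1819: gaggaccgagTgccgctcacg
Nu-25S:1565: gaaacccgtcTgatagcgctt
Pt-4.5S:28: gagccgtttaTcattacgata
Pt-16S:1089: accgttgagtTtggaaccctg

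The anticodon arms of tRNA sites are shown in the same way, because most wide tRNA gaps lay in this arm, which reads the codon. Each line runs from position 27 to position 43 of the tRNA, with the anticodon in its middle. Where the annotated genes matched to a name differ in this arm, a most frequent arm is printed. The printed arm is that of 3 of 9 matched genes for Arg-TCT-2, 10 of 14 for Cys-GCA-4 and 4 of 5 for Pro-CGG-1. It is that of 6 of 7 for Ala-CGC-1, 16 of 17 for Lys-CTT-1 and 43 of 44 for Pro-TGG-2. The first 5 lines are all listed sites at the last anticodon base, position 36, the next 4 are an alanine family at position 38, and the rest are other sites with wide gaps. Names ending in nuclei were read as nuclear, PT as chloroplast and MT as mitochondrial, and the meaning of nuclei-Mt was not given.
Arg-CCT-1-nuclei:36: tctgtttccTaagcaga
Met-CAT-5-nuclei-Mt:37: tcaggctcaTgacctga
Thr-CGT-1-nuclei:35: ttcgcttcgTaagcgaa
Arg-TCT-2-nuclei:36: cttgacttcTaatcaag
Lys-CTT-1-nuclei:36: caaggctctTaaccttg
Ala-TGC-1-nuclei:38: ctcgctttgcaTgcgag
Ala-TGC-2-nuclei:38: ctcgctttgcaTgcgag
Ala-AGC-1-nuclei:38: ctcgcttagcaTgcgag
Ala-CGC-1-nuclei:38: ctcgcttcgcaTgcgag
His-GTG-1-nuclei:33: ccacgtTgtggccgtgg
Pro-TGG-2-nuclei:33: ctcgcttTgggtgcgag
Pro-CGG-1-nuclei:32: ctcgctTcgggtgcgag
Thr-CGT-2-nuclei:32: ttcgctTcgtaagcgaa
Tyr-GTA-1-a-nuclei:35: aaggacTgtaaatcctt
Cys-GCA-4-nuclei:38: attgactgcagaTcaat

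In rRNA the Ψ fraction was higher in flower and silique than in leaves at 96 of 186 sites (51.6%), lower at 18 (9.68%), and the sides overlapped or touched at 72. With a gap of at least 0.1, 13 sites were higher (6.99%) and 1 was lower (0.538%). The median difference between the means of the sides was small, 0.0145, and the median size of the difference, 0.0215, was close to that between flower and silique, 0.022, and above that between the leaves, 0.010. The gap exceeded the differences within both sides at 41 of the 96 higher sites and at 5 of the 18 lower ones. In tRNA the directions were balanced. Flower and silique were higher at 80 of 347 sites (23.1%) and lower at 94 (27.1%), with 173 overlapping or touching and a median difference of 0. With a gap of at least 0.1, 22 tRNA sites were higher (6.34%) and 11 were lower (3.17%). The gap exceeded the differences within both sides at 34 higher and 35 lower tRNA sites.

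**Figure D1:**
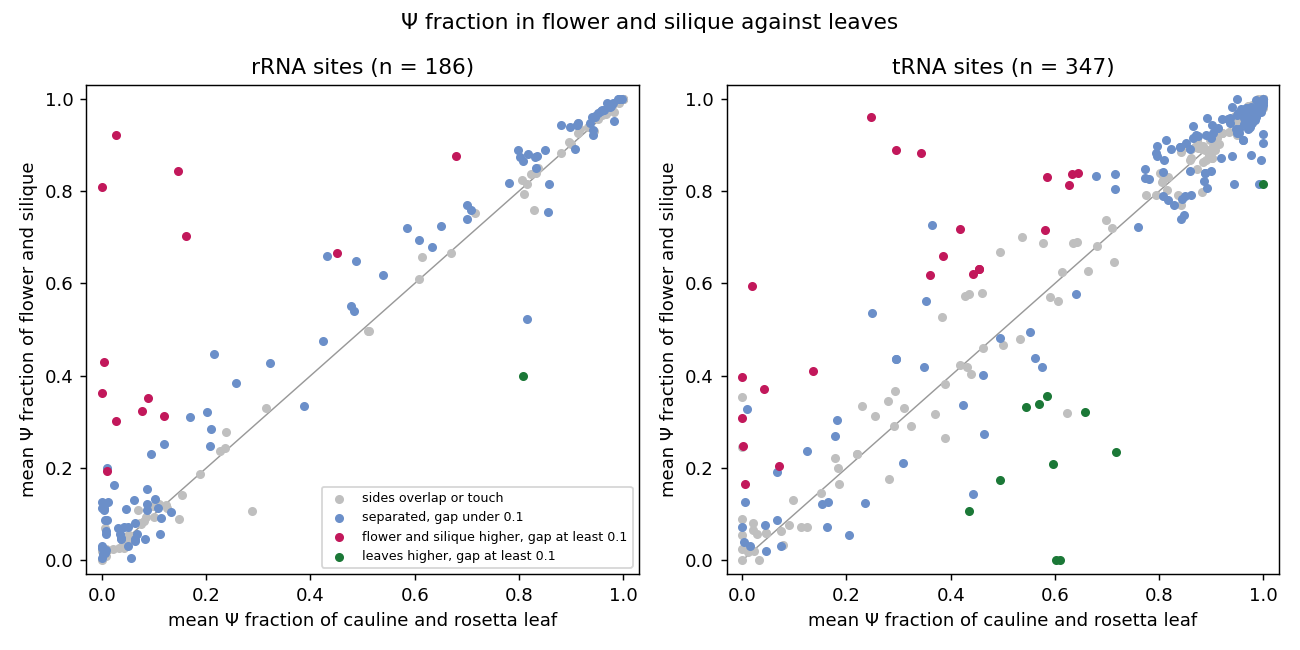
Each point is a site, with the mean Ψ fraction of cauline and rosetta leaf on the x axis and the mean of flower and silique on the y axis, for 186 rRNA sites (left) and 347 tRNA sites (right), and the line marks equal means. Red points (13 and 22 sites) are higher in flower and silique and green points (1 and 11 sites) higher in leaves by a gap of at least 0.1, and blue points are separated by less.

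These counts depend on the level of the whole table. When each tissue was divided by its median over near-saturated sites, those with a median of at least 0.9 over the 9 tissues, the rRNA split changed from 96 higher and 18 lower to 81 and 38. The tRNA split changed from 80 higher and 94 lower to 114 and 70. The tissue medians used for this ran from 0.956 in cauline leaf to 0.977 in flower for rRNA and from 0.968 in flower to 0.978 in cauline leaf for tRNA. Many separations were narrow. Of the rRNA sites, 14 were separated by 0.005 or less, 13 touched and 19 overlapped by 0.005 or less, and the tRNA numbers were 26, 36 and 24. The smallest gap in either table was 0.001. An excess of higher rRNA sites was also not particular to reproductive organs. Set against the same leaf values, seedling and shoot were higher at 104 rRNA sites and lower at 17, with 22 and 2 at a gap of at least 0.1. In tRNA seedling and shoot were higher at 132 sites and lower at 56. Both comparisons share the leaf values, so a low leaf value counts in each.

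The nuclear 18S rRNA, the RNA of the small ribosomal subunit that decodes mRNA, held the widest differences. The largest was at Nu-18S:74, with a Ψ fraction of 0.884 in flower and 0.960 in silique against 0.013 in cauline and 0.040 in rosetta leaf. The site was almost fully modified in the reproductive organs and almost unmodified in leaves, with a gap of 0.844 against a widest difference within a side of 0.076. Nu-18S:723 had 0.765 in flower and 0.853 in silique but was listed at 0 in both leaves. Nu-18S:1367 had 0.743 in flower and 0.946 in silique against 0.158 in cauline and 0.132 in rosetta leaf. At these 3 sites no leaf value came near a value of flower or silique, although flower and silique themselves differed by 0.203 at Nu-18S:1367. Smaller fractions separated as clearly at Nu-18S:669, with 0.270 in flower and 0.334 in silique against 0.021 in cauline and 0.033 in rosetta leaf. Nu-18S:258 had 0.331, 0.296, 0.106 and 0.131 in the same order. It was the site of these 5 that passed the authors' filter in all 4 tissues, the other 4 having passed in flower and silique and in neither leaf.

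In the 5 tissues outside the comparison the same 18S sites ran from leaf-like to flower-like values. Nu-18S:74 had 0.030 in seedling, 0.107 in shoot, 0.298 in stem, 0.707 in root and 0.779 in seed. Nu-18S:723 was listed at 0 in seedling and had 0.143 in shoot, 0.207 in stem, 0.630 in root and 0.753 in seed. Seed and root values therefore lay with flower and silique at both sites, and seedling, shoot and stem nearer the leaves. Of these 5 tissues only root passed the authors' filter at both sites, and seed, despite its high values, passed at neither. Nu-18S:258 differed, since seedling at 0.385 and shoot at 0.440 were above flower and silique, and the leaves were the 2 lowest of the 9 tissues there by 0.129. Over the 13 rRNA sites higher in flower and silique with a gap of at least 0.1, the value lay on the flower and silique side of the midpoint at 10 sites in seed, 7 in root, 4 in shoot, 3 in stem and 2 in seedling.

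**Figure D2:**
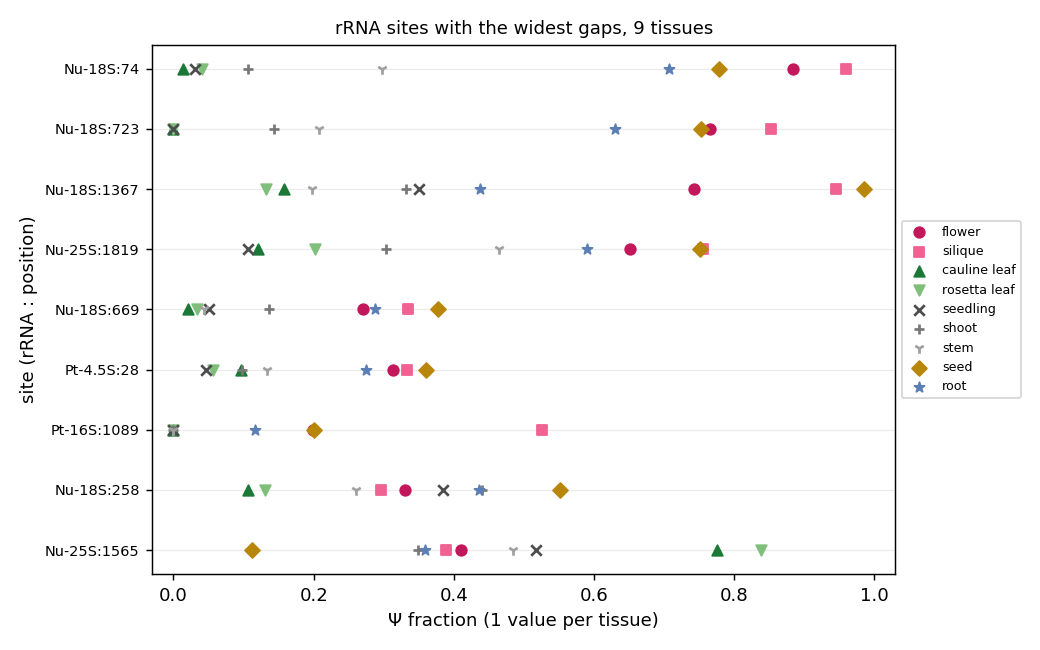
Ψ fraction (x axis, 1 pooled value per tissue) at the 8 rRNA sites higher in flower and silique and the 1 lower site with the widest gaps among sites passed in both tissues of the higher side (y axis), in 9 tissues marked by colour and shape. At Nu-18S:74 flower (0.884), silique (0.960), seed (0.779) and root (0.707) lie far to the right of both leaves (0.013 and 0.040), and at Nu-25S:1565 the leaves lie to the right of the 7 other tissues.

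Of the 66 sites of 18S rRNA 36 were higher (54.5%) and 4 lower (6.06%), against 51.6% and 9.68% over all rRNA sites. By at least 0.1, 6 of them were higher, and the gap exceeded the differences within both sides at 21 higher sites and no lower one. Nu-18S:1372, outside the naming rule, lies near Nu-18S:1367 and had 0.146 in flower and 0.242 in silique against 0.015 in cauline and 0.006 in rosetta leaf. Across the rRNA table, 13 of 186 sites passed the filter in flower and silique and in neither leaf. Of these, 9 were in 18S rRNA, which holds 66 of the 186. The filter was applied to the same libraries, so this count is not independent of the fractions. A single site, Nu-25S:2204, passed in both leaves and in neither reproductive organ. After scaling, 29 of the 18S sites were higher and 10 lower. The 18S sites singled out by the study did not separate. The one at base 4618 of chromosome 2, in the initiation region, had 0.356 in flower and 0.20 in silique against 0.236 in cauline and 0.240 in rosetta leaf, with both leaves between flower and silique. The one at base 4900, in the decoding region, had 0.876, 0.803, 0.822 and 0.844 in the same order.

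The nuclear 25S rRNA, the large-subunit RNA that forms the peptidyl transferase centre, held 74 sites. Of these 38 were higher (51.4%) and 8 lower (10.8%), close to the 51.6% and 9.68% over all rRNA sites. After scaling 31 were higher and 18 lower. A site with a gap of at least 0.1 was found once in each direction. Nu-25S:1819 had 0.651 in flower and 0.756 in silique against 0.120 in cauline and 0.202 in rosetta leaf. Outside the comparison it had 0.751 in seed, 0.590 in root, 0.464 in stem, 0.303 in shoot and 0.106 in seedling. Nu-25S:1565 was the only rRNA site at least 0.1 higher in leaves, with 0.411 in flower and 0.389 in silique against 0.775 in cauline and 0.839 in rosetta leaf. The leaves stood above all 7 other tissues at Nu-25S:1565 by 0.258, seedling being next at 0.517 and seed lowest at 0.112. It had passed the filter in all 4 tissues. The other 7 named rRNA sites that were lower in flower and silique had gaps of 0.041 or less. Among them Nu-25S:1249 was the least even, with 0.656 in flower and 0.389 in silique against 0.680 in cauline and 0.950 in rosetta leaf, so its gap of 0.024 stood against a difference of 0.270 between the leaves. Mt-26S:1495 was the most even, with 0.955, 0.949, 0.980 and 0.984 in the same order.

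The organelle rRNAs build the separate ribosomes of the chloroplast and the mitochondrion. Of 28 chloroplast rRNA sites 15 were higher in flower and silique (53.6%, against 51.6% over all rRNA sites) and 2 lower, 5 of the higher ones with a gap of at least 0.1. Pt-4.5S:28, in the short RNA cut from the 3′ end of the large-subunit precursor, had 0.313 in flower and 0.333 in silique against 0.097 in cauline and 0.057 in rosetta leaf. Pt-16S:1089 had 0.199 in flower and 0.526 in silique but was listed at 0 in both leaves, in seedling, in shoot and in stem. Its gap of 0.199 was smaller than the difference of 0.327 between flower and silique. Pt-4.5S:28 and Pt-16S:1089 passed the filter in flower and silique and in no other tissue. The study, from shoots, reported chloroplast Ψ in the 23S rRNA alone, without high-frequency Ψ in the 16S and 4.5S rRNAs. Of the 11 mitochondrial sites, all in the 26S rRNA, 4 were higher (36.4%) and 3 lower (27.3%, against 9.68% over all rRNA sites). After scaling 3 were higher and 5 lower. The synthase site singled out by the study in the chloroplast, in the 23S rRNA at base 107313 of the chloroplast genome, had 0.970 in flower and 0.963 in silique against 0.962 in cauline and 0.972 in rosetta leaf, an overlap that became lower in flower and silique after scaling. Its mitochondrial counterpart, in the 26S rRNA at base 141063, had 0.986, 0.996, 0.971 and 0.965 in the same order, a gap of 0.015 that became an overlap after scaling. Both sites were thus near full modification on each side.

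Helix 69 of the large-subunit rRNA reaches across to the small subunit and touches the tRNA, and it carries Ψ in all 3 compartments. Its sites were brought together after their values had been seen, as runs of 3 listed sites spaced by 4 and 2 bases. The nuclear rRNA holds 2 such runs, from Nu-25S:2255 and from Nu-25S:2261, which share the latter site. They are shown because the same loop is listed in chloroplast, mitochondrial and nuclear rRNA. The lines come from bases 106612 to 106632 of the chloroplast genome, bases 141728 to 141748 of the mitochondrial genome on the minus strand, and chr2:8384-8404.
Pt-23S:1932: gccgtaactaTaacggtccta
Mt-26S:1542: gcagtaactcTaactgtccta
Nu-25S:2261: ggagtaactaTgactctctta
Of its 11 listed sites 7 were higher in flower and silique (63.6%, against 51.6% over all rRNA sites) and none lower, before and after scaling. Mt-26S:1542 had 0.847 in flower and 0.904 in silique against 0.663 in cauline and 0.696 in rosetta leaf. Pt-23S:1932 had 0.632, 0.701, 0.401 and 0.50 in the same order. Both gaps, 0.151 and 0.132, were wider than the differences within either side. At Mt-26S:1540, with 0.711, 0.607, 0.508 and 0.355, the gap of 0.099 was smaller than the difference of 0.153 between the leaves. Pt-23S:1930 had 0.747, 0.691, 0.554 and 0.617. Seedling and shoot lay above flower and silique at Pt-23S:1932, at 0.710 and 0.733, and at Pt-23S:1930, at 0.758 and 0.792. At Mt-26S:1542 and Mt-26S:1540 flower and silique were the highest of the 9 tissues. The nuclear sites of this helix differed less, with gaps of 0.065, 0.039 and 0.008. At Nu-25S:2265 seed, at 0.671, and seedling, at 0.626, lay above flower, at 0.425, and silique, at 0.345. At Nu-25S:2261 flower and silique, at 0.541 each, were the highest of the 9 tissues. The most 5′ site of the helix overlapped in all 3 compartments, at Pt-23S:1926, Mt-26S:1536 and Nu-25S:2255, as did Nu-25S:2259.

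Transfer RNA sites were grouped by arm. Over all tRNA sites 23.1% were higher in flower and silique and 27.1% lower. The D arm folds against the T arm at the elbow of the tRNA. Of its 33 sites 16 were higher in flower and silique (48.5%) and 3 lower (9.09%), and 17 and 3 after scaling. At position 13 in this arm 9 of 22 sites were higher (40.9%) and 1 lower (4.55%). Pro-AGG-2-nuclei:13 had the widest gap of them, with 0.915 in flower and 0.881 in silique against 0.770 in cauline and 0.821 in rosetta leaf. The T loop holds the Ψ at position 55 of almost every tRNA. Of its 94 sites 13 were higher (13.8%) and 26 lower, none with a gap of at least 0.1. The lower share, 27.7%, was close to that over all tRNA sites. The median Ψ fraction of the T loop was 0.958 in flower and 0.963 in silique against 0.967 in cauline and 0.965 in rosetta leaf. That direction turned with the scaling, to 27 higher and 14 lower, as did that of the leucine, serine and tyrosine tRNAs, from 12 higher and 23 lower to 22 and 17. Those 76 sites were kept apart, as a long variable arm shifts the numbering of leucine and serine tRNAs, and tyrosine tRNAs were put with them. In the acceptor stem, where the amino acid is attached, no site was higher and 8 of 14 were lower (57.1%). After scaling 1 was higher and 8 were lower.

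**Figure D3:**
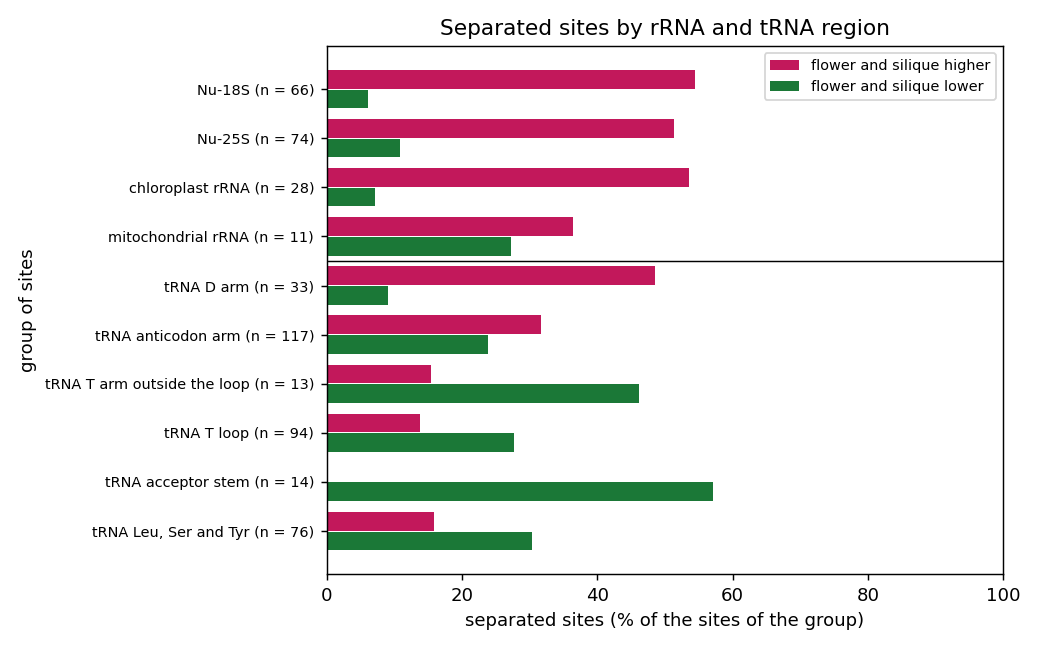
Share of separated sites (x axis, % of the sites of each group) in which flower and silique were higher (red) or lower (green), for 4 groups of rRNA above the line and 6 groups of tRNA below it (y axis, n sites each). In 18S rRNA 54.5% of sites were higher and 6.06% lower, and in the tRNA acceptor stem 57.1% were lower and none higher.

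Among the acceptor stem sites Arg-CCG-1-nuclei:68 had the widest gap, with 0.315 in flower and 0.234 in silique against 0.414 in cauline and 0.512 in rosetta leaf, at position 68 counted back from the 3′ end. Its gap of 0.099 was about as large as the difference of 0.098 between the leaves. Values at the 8 lower sites ran from 0.075 to 0.968, and the other 7 gaps were between 0.010 and 0.033, and Trp-CCA-1-nuclei:70 and Trp-CCA-2-nuclei:70 carry the same 4 values, 0.847, 0.832, 0.894 and 0.880. Lys-CTT-1-nuclei:68 was listed at 1 in all 4 tissues. The median differences of the D arm and the acceptor stem thus had opposite signs, 0.021 and -0.0475.

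The anticodon arm held 15 of the 22 tRNA sites that were at least 0.1 higher in flower and silique and 8 of the 11 that were at least 0.1 lower, leucine, serine and tyrosine tRNAs not counted. It holds 117 of the 347 tRNA sites, of which 37 were higher (31.6%) and 28 lower (23.9%), and 44 and 23 after scaling. Over all tRNA sites 23.1% were higher and 27.1% lower. All 5 sites at position 36, the base that pairs with the first codon base, were higher. This position was picked out after its values had been seen. Arg-CCT-1-nuclei:36 had 0.551 in flower and 0.639 in silique against 0 in cauline and 0.038 in rosetta leaf. It passed the filter in flower and silique, and reached 0.477 in root and 0.249 in shoot while seedling, stem and seed were listed at 0. Met-CAT-5-nuclei-Mt:37 had 0.301 in flower and 0.493 in silique but was listed at 0 in both leaves. Thr-CGT-1-nuclei:35 had 0.270, 0.473, 0.027 and 0.058 in the order flower, silique, cauline leaf and rosetta leaf. Arg-TCT-2-nuclei:36 had 0.143, 0.186, 0 and 0.010, and Lys-CTT-1-nuclei:36 had 0.245, 0.139, 0.114 and 0.020. Leaf values at the 5 sites ran from 0 to 0.114, with 4 of the 10 listed at 0. Met-CAT-5-nuclei-Mt:37 and Thr-CGT-1-nuclei:35 each passed the filter in 1 of the 4 tissues, and Arg-TCT-2-nuclei:36 and Lys-CTT-1-nuclei:36 in none. The gap at Lys-CTT-1-nuclei:36, 0.025, was smaller than the difference within each side. Root lay above flower at Thr-CGT-1-nuclei:35 (0.437), Arg-TCT-2-nuclei:36 (0.329) and Lys-CTT-1-nuclei:36 (0.589), and was listed at 0 at Met-CAT-5-nuclei-Mt:37. Shoot, at 0.586, also lay above flower and silique at Lys-CTT-1-nuclei:36.

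The 4 alanine sites at position 38 were all lower in flower and silique, and were brought together after their values had been seen. Across all tRNAs 2 of 10 sites at position 38 were higher (20%) and 4 lower (40%), the lower ones being these alanine sites. Ala-TGC-1-nuclei:38 had 0.917 in flower, 0.891 in silique and 1 in both leaves. Ala-TGC-2-nuclei:38 had 0.862 and 0.768 in flower and silique, and Ala-CGC-1-nuclei:38 had 0.956 and 0.890, again against 1 in each leaf. Ala-AGC-1-nuclei:38 had 0.928, 0.807, 0.991 and 1. Leaves were thus at or near full modification at each site, and the direction was the same after scaling. Root lay below flower and silique at each site, from 0.563 to 0.802. The median of root over near-saturated tRNA sites, 0.849, was also the lowest of the 9 tissues. The printed anticodon arms of the 4 names share all bases but the first anticodon base, so their reads may not be independent. At position 39, across all tRNAs, 7 of 35 sites were higher (20%) and 11 lower (31.4%), which became 10 and 8 after scaling. The shares over all tRNA sites were 23.1% and 27.1%.

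**Figure D4:**
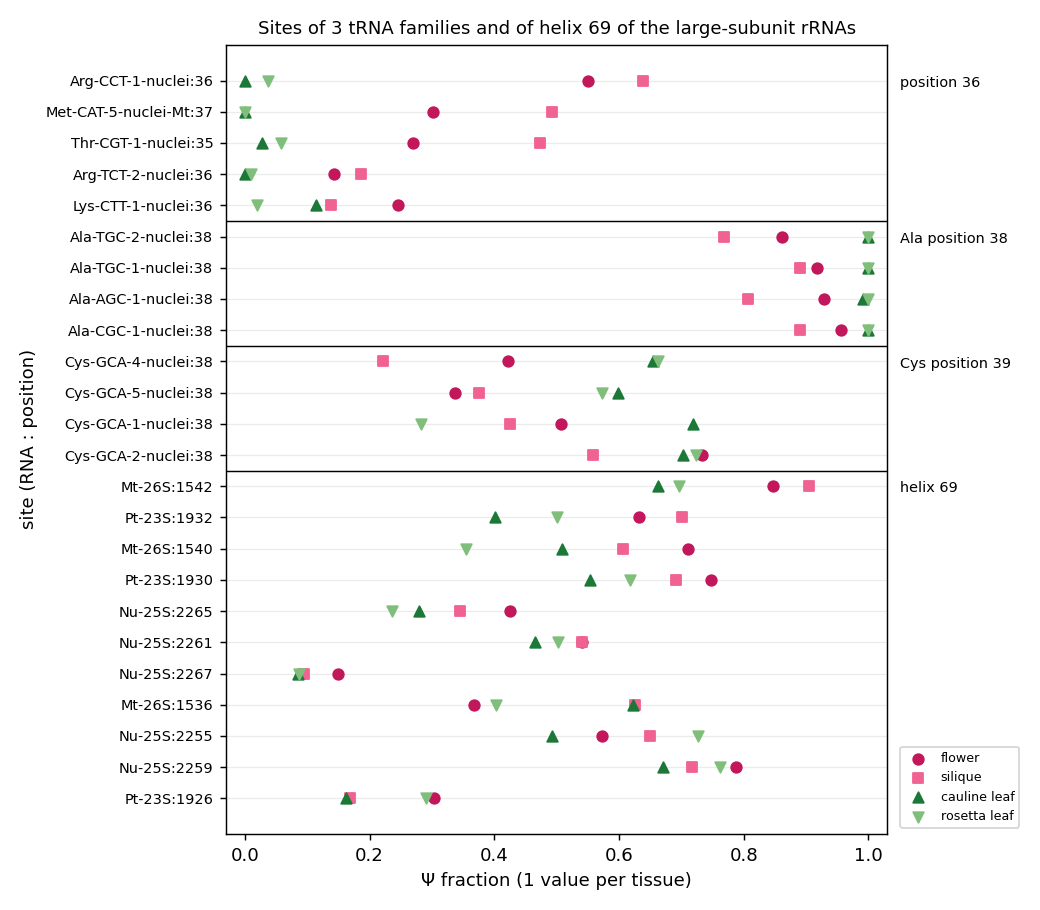
Ψ fraction (x axis, 1 pooled value per tissue) in flower, silique, cauline leaf and rosetta leaf at the sites (y axis) of tRNA position 36, alanine tRNA position 38, cysteine tRNA position 39 and helix 69. At position 36 the leaf values do not exceed 0.114 and at alanine position 38 the leaf values are at least 0.991, with flower and silique above and below them.

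Next to the anticodon, at positions 32 and 33, 7 of 16 sites were higher and 7 lower (43.8% each). Over all tRNA sites 23.1% were higher and 27.1% lower. In histidine tRNA, His-GTG-1-nuclei:33 had 0.850 in flower and 0.824 in silique against 0.615 in cauline and 0.652 in rosetta leaf, and His-GTG-2-nuclei:33 had 0.824, 0.802, 0.696 and 0.559. Over all 13 histidine sites, of nuclear and organelle tRNAs, 8 were higher (61.5%) and none lower. At 4 of the 8 the gap exceeded the differences within both sides. Histidine was picked out with the values of the other amino acids known, and these differed in direction. Methionine had 10 higher and 3 lower of 24 sites, and glycine 1 and 9 of 18. In nuclear proline tRNA, of 6 sites placed at positions 33 and 34 by a matching gene, 4 were higher, 1 lower and 1 overlapping, before and after scaling. Pro-TGG-2-nuclei:33, which is position 34 counted from the anticodon, had 0.625, 0.616, 0.436 and 0.448. Pro-TGG-3-nuclei:33 and Pro-CGG-2-nuclei:33 carry the same values, 0.632, 0.632, 0.502 and 0.406, although Pro-CGG-2 matched no gene and is not among the 6. Pro-AGG-1-nuclei:32 and Pro-TGG-1-nuclei:32 share 0.465, 0.407, 0.225 and 0.364 and were higher, by a gap of 0.043 against a difference of 0.139 between the leaves, and Pro-AGG-3-nuclei:32 overlapped, with 0.284, 0.160, 0.161 and 0.194. Pro-CGG-1-nuclei:32, at position 33, was lower, with 0.189 in flower and 0.227 in silique against 0.615 in cauline and 0.578 in rosetta leaf. The printed arms of Pro-TGG-2 and Pro-CGG-1 differ at the first anticodon base, and the listed base is the last of a run of 3 T in one and of 2 in the other. BID-seq cannot place a deletion within a run of U, and of the 180 tRNA sites in such a run 156 are listed at its 3′ end, so the U that carries Ψ may be another of the run.

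Other anticodon arm sites were lower in flower and silique. Tyr-GTA-1-a-nuclei:35 had the widest gap of the tRNA table, with both flower and silique listed at 0 against 0.587 in cauline leaf and 0.634 in rosetta leaf. Shoot and seed were also listed at 0, and seedling had 0.299. Its neighbour Tyr-GTA-1-a-nuclei:41 had 0.169, 0.047, 0.570 and 0.302, whose gap of 0.133 was smaller than the difference of 0.268 between the leaves. Thr-CGT-2-nuclei:32 had 0.362 in flower and 0.317 in silique against 0.567 in cauline and 0.571 in rosetta leaf, and its single matching gene is AT2G03660 at chr2:1113984-1114055 on the minus strand. Thr-CGT-1-nuclei:32, which has the same anticodon arm, had 0.541, 0.612, 0.614 and 0.666, a gap of 0.002. Ile-AAT-1-nuclei:28, at position 27, had 0.266, 0.397, 0.574 and 0.515. The companion Ile-AAT-2-nuclei:28 overlapped, with 0.463, 0.066, 0.347 and 0.432. Arg-CCG-3-nuclei:39 had 0.439 in both reproductive organs against 0.599 in cauline and 0.525 in rosetta leaf.

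Names of cysteine tRNA with the same anticodon show how far values can part between names. Cys-GCA-4-nuclei:38, at position 39, had 0.422 in flower and 0.222 in silique against 0.654 in cauline and 0.662 in rosetta leaf, and Cys-GCA-5-nuclei:38 had 0.337, 0.375, 0.599 and 0.572. Both were lower in flower and silique. Cys-GCA-1-nuclei:38 had 0.507, 0.425, 0.719 and 0.283, and Cys-GCA-2-nuclei:38 had 0.733, 0.558, 0.702 and 0.724, and both overlapped. Each of the 4 names matched 14 annotated genes, so they could not be told apart here. In all, 26 tRNA sites shared their position and all 4 values with a site of another name, in 12 sets. In 2 of the sets, which hold 6 sites of 5 amino acids, the shared value was 1 in all 4 tissues, so those sites match only at the ceiling.

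**Figure D5:**
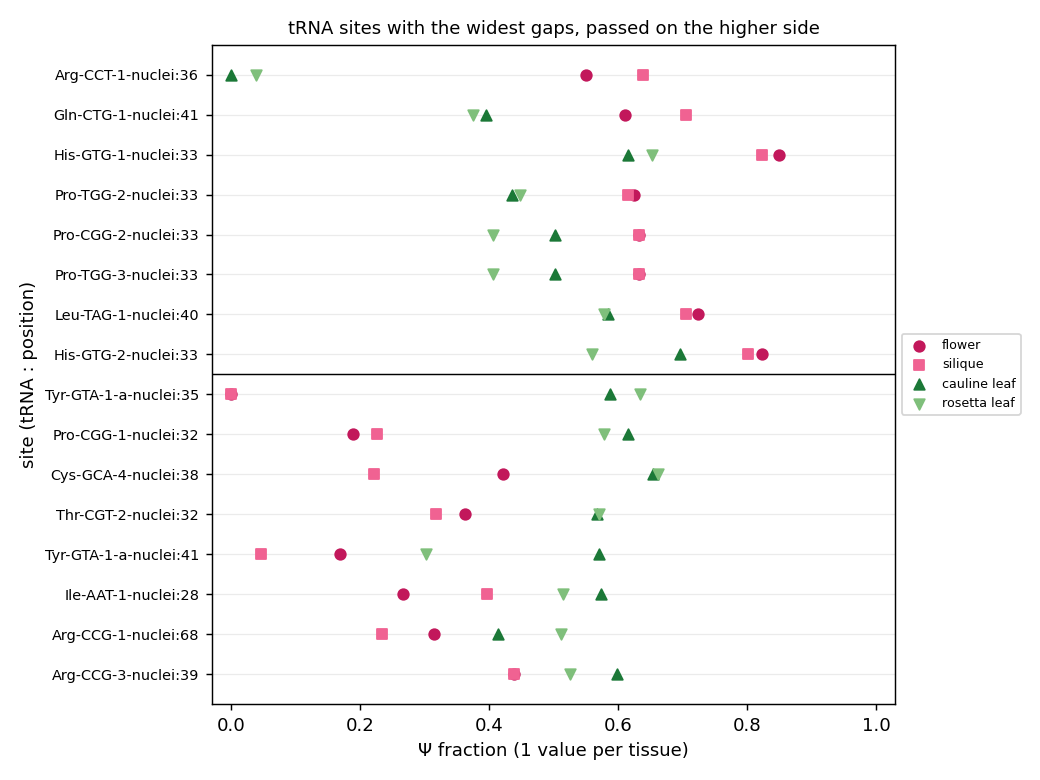
Ψ fraction (x axis, 1 pooled value per tissue) in flower, silique, cauline leaf and rosetta leaf at the 8 tRNA sites higher in flower and silique (above the line) and the 8 lower ones (below it) with the widest gaps among sites passed in both tissues of the higher side (y axis). Flower and silique are listed at 0 at Tyr-GTA-1-a-nuclei:35, and cauline leaf at Arg-CCT-1-nuclei:36.

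The remaining named tRNA sites were higher. Gln-CTG-1-nuclei:41 had 0.611 in flower and 0.706 in silique against 0.396 in cauline and 0.375 in rosetta leaf, and its single matching gene is AT1G01270 at chr1:111890-111961 on the minus strand. Leu-TAG-1-nuclei:40, at position 39, had 0.724, 0.706, 0.584 and 0.578, a gap of 0.122 against at most 0.018 within a side. Shoot reached 0.745 at the leucine site, above flower. Of the 347 tRNA sites, 3 passed the filter in flower and silique and in neither leaf, and 12 the other way. The 22 higher sites with a gap of at least 0.1 included 3 that passed in none of the 4 tissues. Among them was Met-CAT-7-PT:17, with 0.328 in flower and 0.287 in silique and listed at 0 in both leaves.

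Against all the other tissues, flower and silique were both above the other 7 at 10 rRNA sites and both below them at 2, the widest above being Nu-18S:74, by 0.105. Cauline and rosetta leaf were both above the other 7 at 2 rRNA sites and both below them at 25. In the 343 tRNA sites with 9 values, flower and silique were above the other 7 at 21 sites and below them at 3, and the leaves were above at 23 and below at 7. By a margin of at least 0.05, flower and silique were above the other 7 at 4 rRNA sites and the leaves below them at 3. These counts are of unscaled values. In rRNA, only without a margin did the leaves stand more often at the low end than flower and silique at the high end. At 18S sites such as Nu-18S:74 the leaves shared that low end with seedling.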

How the data were processed

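Total RNA BID-seq libraries of 9 tissues were made and sequenced as single reads by the authors, who ran their pseudoU-BIDseq pipeline against TAIR10. They summed gapped and ungapped reads of both replicates and turned the gap ratio into a Ψ fraction with a calibration curve. The deposited fraction is 1 pooled value per site and tissue, from 0 to 1. A deposited TRUE or FALSE says whether a site passed their p-value filter, whose thresholds were not given. Read counts were not used here, so depth is unknown and no interval or detection limit was computed.

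Sides were compared by counts of separated sites, the difference of side means and the gap, without a test. Named sites were, per table and direction, the 8 with the widest gap among those passed in both tissues of the higher side, and 4 rRNA sites singled out by the study. Members of a tRNA family are given beside a named site, and sites chosen after their values were seen are said to be. The comparison, groups and lists were chosen with earlier results of these data known.

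Positions were placed on TAIR10.1 by requiring a T at each. A single offset on chromosome 2 put 147 of 147 nuclear sites on a T (next best 62), and a second rDNA copy on chromosome 3 cannot be separated from it. The 25S rRNA has no annotation in TAIR10.1 and follows the study's numbering. In the chloroplast 23 of 23 sites from the 23S on and, with a lead of 50 bases before the 16S, 5 of 5 earlier sites fell on a T, so the 16S placement is less certain. Of the mitochondrial sites 10 of 11 did (next best 8), so their coordinates are approximate. For tRNA, 138 of 144 names matched at least 1 of 684 annotated genes of the same anticodon, and positions 27 to 43 were counted from the anticodon. Arms were the D arm (10 to 25), anticodon arm (26 to 44), T arm (49 to 65, its loop 54 to 60) and acceptor stem (1 to 7 and 66 to 73). Alternatives changed the filter, the gap, the scale, the handling of 0 and of shared values, and left out each tissue. The software was pandas 2.3.3 and numpy 2.4.6 under Python 3.11.15, Biopython 1.88 for sequences and matplotlib 3.10.9 for plots.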

Additional observations from a re-analysis of the deposited data

How the results depend on the processing

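The depth behind a fraction is unknown, so which separations lie beyond sampling error could not be assessed. No paired analysis was possible because the tables pool the replicates of a tissue, and leaving out single replicates was not possible for the same reason. Of 96 higher rRNA sites, 49 were left among sites passed in all 4 tissues, 31 at a gap of at least 0.05, 13 at 0.1, and 41 with a gap wider than within either side. Of 18 lower ones, 9, 1, 1 and 5 were left, and scaling to near-saturated sites gave 38. Leaving out each tissue, which needs 3 values to separate, gave 106 to 128 higher and 22 to 38 lower rRNA sites, with 38 lower without flower and 32 without cauline leaf. The median rRNA difference stayed between 0.0085 and 0.02 in those runs, and the mean over sites was 0.0486. In tRNA, 44 higher sites passed in all 4 tissues, and 35, 22 and 34 met the 3 gap settings, as did 21, 11 and 35 of the lower ones. Leaving out each tissue gave 111 to 140 higher tRNA sites (140 without silique, 121 without rosetta leaf) and 120 to 130 lower ones. Sites at 0, shared values and the joint nuclei-Mt label moved no count by over 1.5 times. Over 36 named sites, 177 of 180 values without 1 tissue or after scaling moved by no more than the widest difference within a side, 3 moved more, and none changed sign among separated sites.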
